A study of Mus musculus with 12 samples.

Results

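The genes described here were the tumour suppressor p53 (Trp53), its ubiquitin ligase Mdm2, the p53 target genes Cdkn1a, Ccng1, Sesn1 and Sesn2, the related sestrin Sesn3, and the D-type cyclins Ccnd1, Ccnd2 and Ccnd3. They were taken by gene symbol from the tables of the 3 time points. All 10 genes were present among the 39430 gene names shared by the 3 tables. All 10 were also among the 13413 genes with a mean of at least 1 FPKM over the 6 groups, which are called the measured genes below. FPKM counts the sequenced fragments of a gene relative to the length of its transcript and to all fragments that were mapped.

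Polyadenylated RNA was measured in the prefrontal cortex of male mice of the strain labelled C57BL/6 (C57BL/6 J in the methods), aged 10 weeks, after repeated daily intraperitoneal injections of cocaine or of saline. The cortex was excised at 1 of 3 delays from the final injection (2 h, 24 h, 7 d). This gave 6 groups with 2 libraries apiece. Every library was a random pool of 5 animals, and 60 animals stood behind the 12 libraries. No group is labelled with a transgene or a deletion, and the injections were given by the experimenter, so the mice did not administer the drug themselves. The excised tissue took in several cortical subregions and held neurons, glia and vessels together. In such bulk tissue a smaller number of cells of a type and less RNA per cell cannot be told apart.

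The tables gave 1 pooled FPKM per group and no value per library. The values below are these deposited pooled values, without replicate error, and the depth behind them is unknown. No cocaine against saline difference at a single time point could be tested. Differences are given on the log2(FPKM + 1) scale as cocaine minus saline, and a gene is called past the limit when the size of its difference exceeded 0.32 on that scale, an increase of 25% in FPKM + 1 or the matching decrease. The 3 tables were normalised separately. The median measured gene differed between the tables by at most 0.04 on the log2 scale within saline or within cocaine, and levels set across time points carry that limit. The headings of the tables do not spell out the treatment, and the first value of each pair was read as saline and the second as cocaine, as the supplementary tables of the study head them. The sample descriptions mark cocaine with C and control with CC, so the heading C of the first value could by itself be read as cocaine. Under that reading every sign below would turn. At 24 h the first and second values of Fos were 3.95 and 9.24 FPKM, close to those the study lists as saline and cocaine. For Junb the pairs were 11.4 and 61.6 FPKM at 2 h, and 12.9 and 17.9 FPKM at 7 d. The study reports Junb as higher in cocaine at both times, by sequencing and by PCR. For both genes the order of saline before cocaine thus matched the study, and the reversed order did not.

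p53 is a transcription factor that is kept at a low level by Mdm2, which marks it for degradation, while the gene for Mdm2 is itself switched on by p53, so that the pair forms a negative feedback loop. Cdkn1a encodes p21, an inhibitor of cyclin-dependent kinases that halts the cell cycle downstream of p53, and D-type cyclins act on the opposite side by activating Cdk4 and Cdk6, which phosphorylate the retinoblastoma protein. Sestrins are stress-induced proteins that hold back the growth kinase complex mTORC1 through the GATOR2 complex. In adult cortex nearly all neurons have left the cell cycle, and D-type cyclins and p21 are known there from glia, vascular cells and precursors as well as from neurons.

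The promoters of the genes are shown because binding of p53 in or near a gene is the feature that defines a p53 target, and a promoter of Ccnd3 and the other one of Cdkn1a are set beside them. RefSeq promoter sequences on GRCm38.p6 were used for 8 of the 10 genes, all but Ccnd1 and Ccnd2, with 11 start sites in all, and the 250 bases before each start were searched on both strands. Matches to the p53 half-site, the consensus of 10 bases that p53 binds in pairs, were present before Cdkn1a start site 1, Mdm2, Ccng1, Sesn1 start site 2 and Trp53. The promoters of the p53 target Sesn2, of Sesn1 start site 1 and of Sesn3 held no such match, and their sequences are not shown. Such a match was held by 7.13% of all 32851 promoters. In the sequences below, written 5′ to 3′ along the strand of the gene, capitals mark p53 half-sites, GC boxes (GGGCGG, or CCGCCC on the other strand) and the TATA box (TATAAA, or TTTATA on the other strand).
Cdkn1a, start site 1, chr17:29090729-29090978, plus strand: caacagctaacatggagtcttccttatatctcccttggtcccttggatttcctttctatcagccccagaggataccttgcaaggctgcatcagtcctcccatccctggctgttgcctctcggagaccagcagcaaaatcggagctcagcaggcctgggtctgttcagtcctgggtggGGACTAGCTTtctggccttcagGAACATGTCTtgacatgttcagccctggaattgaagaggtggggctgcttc
Cdkn1a, start site 2, chr17:29093519-29093768, plus strand: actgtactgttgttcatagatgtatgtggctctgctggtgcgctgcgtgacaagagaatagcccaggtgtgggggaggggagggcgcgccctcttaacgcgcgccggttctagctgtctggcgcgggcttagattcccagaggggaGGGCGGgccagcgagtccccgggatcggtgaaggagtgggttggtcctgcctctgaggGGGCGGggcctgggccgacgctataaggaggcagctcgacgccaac
Mdm2, chr10:117710759-117711008, minus strand: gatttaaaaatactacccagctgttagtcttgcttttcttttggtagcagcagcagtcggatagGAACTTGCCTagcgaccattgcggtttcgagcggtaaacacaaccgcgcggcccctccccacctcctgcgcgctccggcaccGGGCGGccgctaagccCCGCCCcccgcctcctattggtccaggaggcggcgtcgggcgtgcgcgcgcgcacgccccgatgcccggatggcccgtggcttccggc
Ccng1, chr11:40755287-40755536, minus strand: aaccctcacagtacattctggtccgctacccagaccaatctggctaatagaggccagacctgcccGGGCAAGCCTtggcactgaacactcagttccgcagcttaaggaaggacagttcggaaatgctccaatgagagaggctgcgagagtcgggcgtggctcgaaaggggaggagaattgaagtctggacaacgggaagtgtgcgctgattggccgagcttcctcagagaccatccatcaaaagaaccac
Sesn1, start site 2, chr10:41887189-41887438, plus strand: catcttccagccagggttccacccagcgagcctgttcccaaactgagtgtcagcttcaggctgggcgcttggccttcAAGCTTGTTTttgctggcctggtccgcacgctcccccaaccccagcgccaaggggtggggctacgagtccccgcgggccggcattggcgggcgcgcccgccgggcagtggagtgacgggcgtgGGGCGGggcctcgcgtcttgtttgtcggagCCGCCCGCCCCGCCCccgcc
Trp53, chr11:69580109-69580358, plus strand: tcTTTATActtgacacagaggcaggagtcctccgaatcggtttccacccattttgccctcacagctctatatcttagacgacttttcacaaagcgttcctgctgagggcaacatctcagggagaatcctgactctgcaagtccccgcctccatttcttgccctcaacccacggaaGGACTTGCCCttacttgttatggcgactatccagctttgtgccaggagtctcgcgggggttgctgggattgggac
Ccnd3, start site 2, chr17:47593217-47593466, plus strand: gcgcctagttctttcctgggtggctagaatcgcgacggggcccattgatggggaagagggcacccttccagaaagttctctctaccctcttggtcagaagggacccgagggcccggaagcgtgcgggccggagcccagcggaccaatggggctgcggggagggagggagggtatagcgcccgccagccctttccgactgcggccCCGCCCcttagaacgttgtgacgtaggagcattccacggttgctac

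Cdkn1a held 2 half-sites before its start site 1, which began 73 and 51 bases before the start, and 0 before its start site 2, where 2 GC boxes were found instead. The half-site of Mdm2 began 186 bases before the start and that of Ccng1 185 bases before it. The one of Sesn1 start site 2 began 173 bases before the start and that of Trp53 75 bases before it. The TATAAA match marked in Trp53 began 248 bases before the start and read on the other strand. It is a match of letters, and whether it acts as a TATA box was not tested. Neither promoter of Ccnd3 held a half-site, and both held GC boxes, which were present in 32.7% of all promoters. The cyclic AMP response element (TGACGTCA), the AP-1 site (TGANTCA), the E-box (CACGTG) and the serum response element, which are known from genes switched on by neuronal activity, had 0 matches in the 11 promoters. Over all promoters their shares were 1.55%, 6.75%, 6.02% and 1.47%. A match or its absence in this window is a description of the letters and says nothing of binding.

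FPKM values are scaled to transcript length, so the levels of the genes can be set beside each other. In saline the mean over the 3 time points was highest for Ccng1 with 22.0 FPKM and Sesn1 with 20.9 FPKM, whose ranges over time overlapped. Ccnd1 with 16.2 FPKM and Sesn3 with 15.9 FPKM followed and also overlapped with each other. The next were Cdkn1a with 11.2 FPKM, Ccnd2 with 10.3 FPKM and Ccnd3 with 9.13 FPKM, where each gene overlapped with its neighbour. Mdm2 with 7.82 FPKM, Trp53 with 6.12 FPKM and Sesn2 with 3.68 FPKM lay below, and their ranges were apart. The sestrins thus lay at both ends of the order, and p53 itself was among the least abundant of the 10 transcripts.

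**Figure D1:**
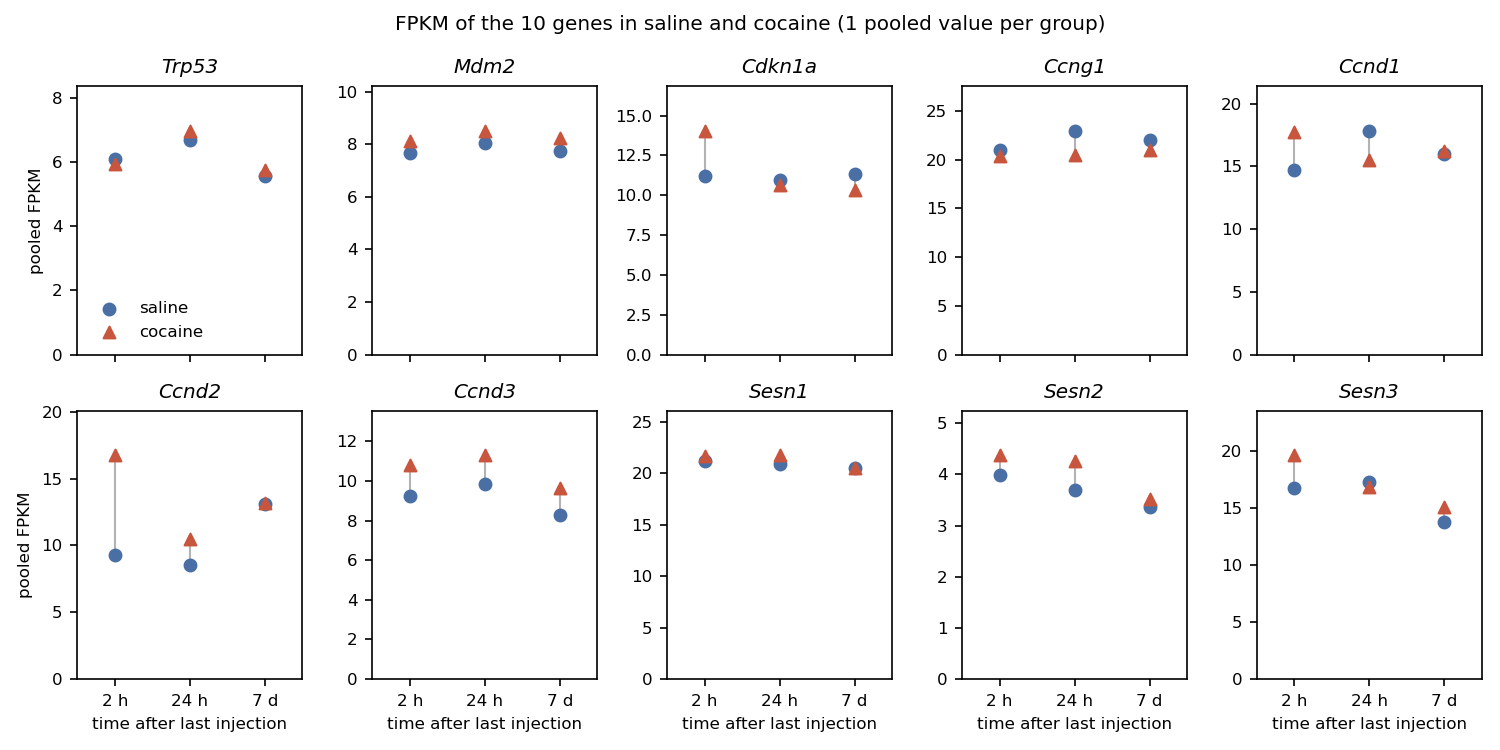
Pooled FPKM (vertical axes, starting at 0) of each of the 10 genes in saline (blue circles) and cocaine (red triangles) at 2 h, 24 h and 7 d after the last injection, with 1 pooled value per group and no error bar. The widest gap is that of Ccnd2 at 2 h, 9.25 against 16.7 FPKM, and the 3 Mdm2 triangles lie above all 3 Mdm2 circles.

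Ccnd2 had the largest difference of the 10 genes, and Ccnd2 at 2 h was the only value past the limit. At 2 h 8 of the 10 genes were higher in cocaine, with a median difference of 0.16, beside a median of 0.02 over the measured genes, of which 56.1% were higher. At 24 h 6 genes were higher and 4 lower, with a median of 0.05 beside 0.01 over the measured genes, of which 52.7% were higher. At 7 d 7 were higher and 3 lower, with a median of 0.03 beside −0.01 over the measured genes, of which 47.6% were higher. Of the measured genes 4.79% were past the limit with cocaine higher at 2 h, 2.56% at 24 h and 2.81% at 7 d, against 1, 0 and 0 of the 10 genes. With cocaine lower these shares were 3.0%, 2.32% and 5.58%, against 0 of the 10 genes at each time. At 7 d 33.5% of the measured genes past the limit were higher in cocaine. Over the 11343 genes with a known transcript length this share was 31.2% as deposited and 53.1% after a trend over length was taken out.

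**Figure D2:**
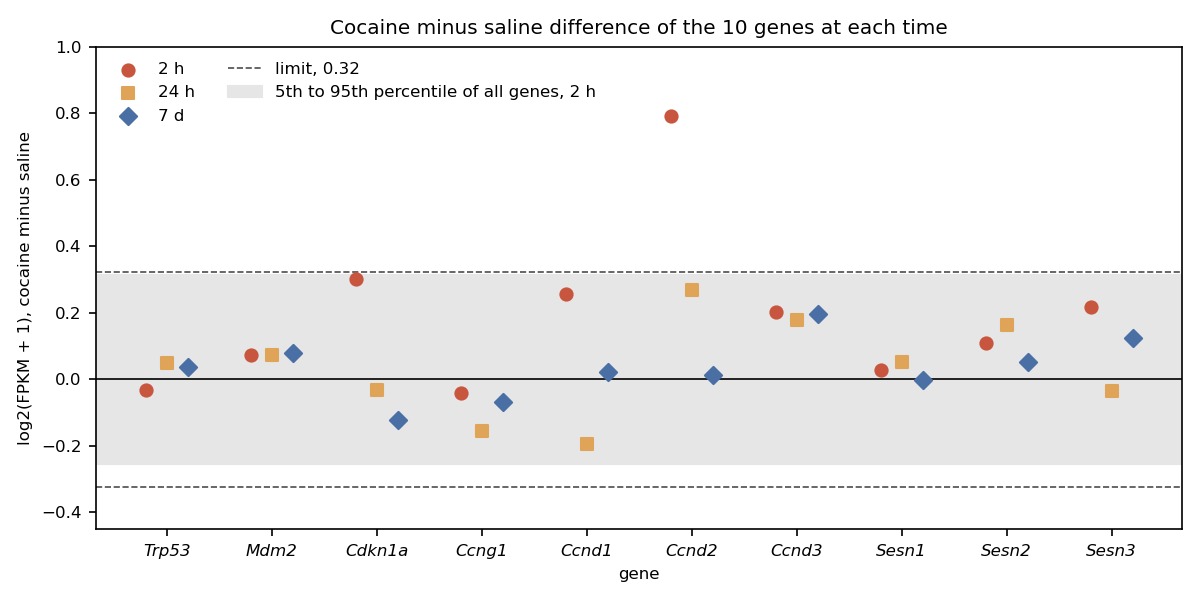
Cocaine minus saline difference on the log2(FPKM + 1) scale (vertical axis) of each gene (horizontal axis) at 2 h (red circles), 24 h (yellow squares) and 7 d (blue diamonds), from 1 pooled value per group. Dashed lines mark the limit of 0.32 and the grey band runs from the 5th to the 95th percentile of the measured genes at 2 h. Ccnd2 at 2 h, at 0.79, lies above the upper line, and Cdkn1a at 2 h, at 0.30, lies just under it.

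Trp53 lies on chromosome 11 at 69580359 to 69591873 (GRCm38, as are the other positions). It measured 6.09 FPKM in saline and 5.94 FPKM in cocaine at 2 h, 6.70 and 6.98 FPKM at 24 h, and 5.57 and 5.74 FPKM at 7 d. The differences were −0.03, 0.05 and 0.04, smaller than the median size of a difference over the measured genes, which was 0.09, 0.07 and 0.11 at the 3 times. The saline and cocaine values overlapped over time. The activity of p53 is set largely by its stability and modification, which RNA levels do not show.

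Mdm2, on chromosome 10 at 117688888 to 117710758, was slightly higher in cocaine at every time. It measured 7.68 and 8.13 FPKM in saline and cocaine at 2 h, 8.03 and 8.51 FPKM at 24 h, and 7.75 and 8.25 FPKM at 7 d. All 3 cocaine values lay above all 3 saline values, which was seen for none of the other 9 genes and for 3.38% of the measured genes. The differences were small, at 0.07, 0.07 and 0.08, and at 2 h 58.7% of the measured genes differed at least as much.

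Cdkn1a, the gene for p21, was higher in cocaine at 2 h and lower at 24 h and 7 d. It lies on chromosome 17 at 29090979 to 29100722. It measured 11.2 FPKM in saline and 14.1 FPKM in cocaine at 2 h, 10.9 and 10.7 FPKM at 24 h, and 11.3 and 10.3 FPKM at 7 d. The 3 saline values stayed within a narrow range, the cocaine value at 2 h stood above it, and the other cocaine values stood below it. The difference at 2 h was 0.30, which 9.14% of the measured genes reached or passed in either direction. Those at 24 h and 7 d were −0.03 and −0.12, which 75.0% and 45.6% reached or passed. Without a pseudocount the difference at 2 h was 0.33 and past the limit.

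Ccng1 encodes cyclin G1, a p53 target that takes part in the feedback on p53 and Mdm2. It lies on chromosome 11 at 40748550 to 40755311 and was the only one of the 10 genes that was lower in cocaine at all 3 times, as were 14.1% of the measured genes. It measured 21.0 and 20.3 FPKM in saline and cocaine at 2 h, 23.0 and 20.5 FPKM at 24 h, and 22.0 and 21.0 FPKM at 7 d. The differences were −0.04, −0.16 and −0.07. The cocaine value at 7 d and the saline value at 2 h were nearly equal, so the groups touched over time. Cdkn1a and Ccng1, both p53 targets with a half-site in the sequences shown, therefore had opposite signs at 2 h and the same sign at 24 h and 7 d.

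Among the D-type cyclins, Ccnd2 and Ccnd3 were higher in cocaine at all 3 times, while Ccnd1 changed sign between 2 h and 24 h. Ccnd2 lies on chromosome 6, and its RefSeq gene runs from 127125162 to 127152188. It measured 9.25 FPKM in saline and 16.7 FPKM in cocaine at 2 h, 8.50 and 10.5 FPKM at 24 h, and 13.1 and 13.2 FPKM at 7 d. The value in cocaine at 2 h was the highest of the 6, and the saline value at 7 d lay above the cocaine value at 24 h, so the groups overlapped over time. The ratio at 2 h was 1.81-fold and the difference 0.79, which 244 of the measured genes, or 1.82%, reached or passed in either direction. The differences at 24 h and 7 d were 0.27 and 0.01, so that the one at 2 h exceeded them by 0.52 and 0.78, which could not be tested. The sign at 7 d was not stable. There 93.0% of the measured genes differed at least as much, and the difference was −0.06 with the length trend taken out.

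The row of Ccnd2 in the tables shared its locus with that of the transcript 9330179D12Rik. That transcript measured 3.63 FPKM in saline and 2.69 FPKM in cocaine at 2 h, 2.35 and 2.91 FPKM at 24 h, and 3.24 and 3.38 FPKM at 7 d, so at 2 h it was lower where Ccnd2 was higher. The library kit does not mark the strand, and reads from overlapping parts of the pair cannot be told apart.

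Ccnd3, on chromosome 17 with a RefSeq gene from 47505051 to 47599689, had the most even difference of the D-type cyclins. It measured 9.24 and 10.8 FPKM in saline and cocaine at 2 h, 9.87 and 11.3 FPKM at 24 h, and 8.28 and 9.64 FPKM at 7 d. Cocaine was higher within each time point, and the cocaine value at 7 d lay below the saline value at 24 h. The differences were 0.20, 0.18 and 0.20, and their range over the times was 0.03. At 2 h 19.5% of the measured genes differed at least as much. The row shared its locus with Bysl, a ribosome assembly gene, which measured 7.58 and 8.05 FPKM at 2 h, 7.55 and 7.74 FPKM at 24 h, and 7.31 and 6.81 FPKM at 7 d.

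Ccnd1, on chromosome 7 with a RefSeq gene from 144929931 to 144939831, was the most abundant of the D-type cyclins in the mean of the saline groups. It measured 14.7 FPKM in saline and 17.7 FPKM in cocaine at 2 h, 17.8 and 15.5 FPKM at 24 h, and 16.0 and 16.2 FPKM at 7 d. The saline value at 24 h was the highest of the 6 and the saline value at 2 h the lowest, so the groups overlapped fully. The differences were 0.26, −0.19 and 0.02. The neighbouring gene Oraov1, reported at the same locus, measured 5.32 and 5.70 FPKM at 2 h, 6.68 and 5.70 FPKM at 24 h, and 5.65 and 5.77 FPKM at 7 d, with the same signs as Ccnd1.

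Sesn1, Sesn2 and Sesn3 differed more in level than in their response to cocaine. Sesn1, on chromosome 10 at 41810574 to 41908424, measured 21.2 and 21.6 FPKM in saline and cocaine at 2 h, 20.9 and 21.7 FPKM at 24 h, and 20.5 and 20.5 FPKM at 7 d. Its differences of 0.03, 0.05 and −0.00 were smaller than the median size over the measured genes at each time, and its saline and cocaine values overlapped over time.

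Sesn2, the least abundant sestrin, lies on chromosome 4 with a RefSeq gene from 132492804 to 132510456. It measured 3.98 and 4.37 FPKM in saline and cocaine at 2 h, 3.70 and 4.26 FPKM at 24 h, and 3.35 and 3.52 FPKM at 7 d. Its differences of 0.11, 0.16 and 0.05 were all positive, although the cocaine value at 7 d lay below both the other saline values. With Mdm2, Ccnd2 and Ccnd3 it made up the 4 of the 10 genes that were higher in cocaine at all 3 times, as were 18.6% of the measured genes. For Ccnd2 the sign at 7 d turned with the length trend taken out.

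Sesn3, on chromosome 9 at 14276301 to 14333102, measured 16.8 and 19.6 FPKM in saline and cocaine at 2 h, 17.3 and 16.8 FPKM at 24 h, and 13.8 and 15.1 FPKM at 7 d. Its differences were 0.22, −0.03 and 0.12. The highest value was that of cocaine at 2 h and the lowest that of saline at 7 d. Sesn3 is known as a target of FoxO factors rather than of p53. At 7 d a second row of Sesn3 at the same locus measured 1.37 and 1.71 FPKM, and the row with the higher values is the one given here.

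The only spread that the pooled values allow is that of the difference over the 3 time points. A limma model of the 6 pooled values per gene with time as a block gave the mean difference, with Benjamini-Hochberg adjustment over the 13413 measured genes, and an effect of a single time counts as error in it. It called 0.00% of the genes, that is 0, while 1047 genes had an unadjusted p under 0.05, 635 of them (4.73%) with cocaine higher. The number called in limma was 1 with a pseudocount of 0.1, 7 without the 2 h table, 3 without the 24 h table and 1 without the 7 d table. None of the 10 genes was called in these settings, with a trend over transcript length taken out, or without a minimum FPKM. Over all of these, their lowest adjusted p in limma was 0.491, for Ccnd3 with the length trend taken out.

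With all 3 tables and the minimum of 1 FPKM, Ccnd3 was the only one of the 10 genes whose 95% interval left out 0. Its mean difference was 0.19 ± 0.04 (moderated SE of limma), with an interval from 0.08 to 0.30. The limma p was 0.00736, or 0.627 after Benjamini-Hochberg adjustment. Each SE and interval given here mixes the spread of the gene over the time points with that of other genes. For Ccnd3 the same 3 differences gave an SE of 0.012 when no minimum FPKM was set. Without the 2 h table the interval of Ccnd3 ran from −0.01 to 0.38 and took in 0. Ccnd2 had the larger mean, 0.36 ± 0.16, with an interval from −0.08 to 0.80 and an adjusted limma p of 0.628. Its mean was 0.14 without the 2 h table and 0.53 without the 7 d table, where the interval, from 0.002 to 1.06, left out 0. The mean of Mdm2 was 0.08 ± 0.04, with an interval from −0.03 to 0.19 and an adjusted limma p of 0.639. Without a minimum FPKM its interval ran from 0.04 to 0.11. The mean of Ccng1 was −0.09 ± 0.04, with an interval from −0.21 to 0.03 and an adjusted limma p of 0.632.

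Cdkn1a and Ccnd1 had wide intervals around a mean near 0. Cdkn1a had a mean of 0.05, with an interval from −0.21 to 0.31, and Ccnd1 a mean of 0.03, with an interval from −0.23 to 0.29. Without the 2 h table these means were −0.08 and −0.09, and the largest means with a table left out were 0.13 for Cdkn1a, without 7 d, and 0.14 for Ccnd1, without 24 h. Sesn1 had the narrowest interval, from −0.08 to 0.13 around 0.03. Sesn2 had 0.11, with an interval from −0.04 to 0.25, Sesn3 had 0.10, from −0.07 to 0.27 (a mean of 0.04 without 2 h and of 0.17 without 24 h), and Trp53 had 0.02, from −0.11 to 0.14.

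**Figure D3:**
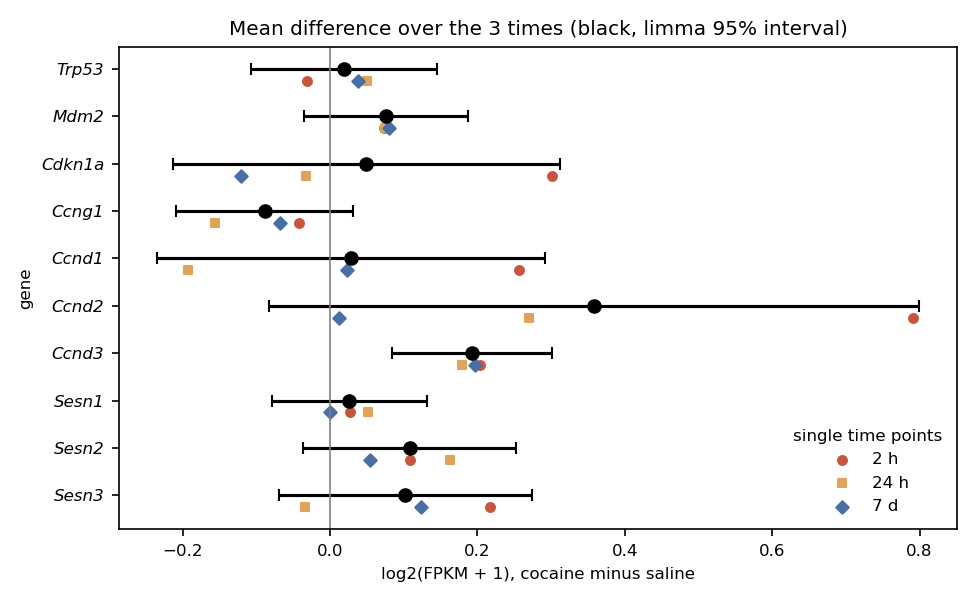
Mean cocaine minus saline difference over the 3 time points on the log2(FPKM + 1) scale (black circles, horizontal axis) with its 95% interval from limma (black bars) for each gene, and the differences at 2 h (red circles), 24 h (yellow squares) and 7 d (blue diamonds) below each. The interval of Ccnd3, from 0.08 to 0.30, lies to the right of 0, while those of the other genes cross it.

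Other genes of the p53 pathway were read from fixed lists. Of 13 regulators of p53, among them Mdm4, Atm and the phosphatase Ppm1d, 7 were measured and 0 were past the limit at any time. Mdm4, the partner of Mdm2 that blocks p53 without degrading it, had differences of −0.17, 0.00 and 0.23. Of 47 symbols listed as further p53 targets, which hold 2 genes under both an older and a newer symbol, 38 were measured. At 2 h 5 of them (13.2%) were past the limit with cocaine higher and 2 (5.26%) with cocaine lower, at 24 h 1 (2.63%) and 0, and at 7 d 1 and 1. Their median differences were 0.04, 0.05 and 0.01 at the 3 times beside 0.02, 0.01 and −0.01 over all measured genes. Among all measured genes the shares past the limit with cocaine higher were, in the order of the times, 4.79%, 2.56% and 2.81%. The shares with cocaine lower were 3.0%, 2.32% and 5.58%. The lists of p53 targets are broad, and some listed genes, such as Gadd45b and Cycs, may not be direct targets of p53.

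Of the 5 genes listed as p53 targets with cocaine higher at 2 h, 3 were on the list of cell cycle arrest and repair. Btg2, an antiproliferative gene that is also known as an early response gene, measured 2.81 FPKM in saline and 5.87 FPKM in cocaine at 2 h, a difference of 0.85. Plk3, a stress-responsive kinase, measured 2.71 and 5.38 FPKM, a difference of 0.78, and Gadd45b, a growth arrest gene that is also switched on by neuronal activity, measured 5.29 and 9.04 FPKM, a difference of 0.67. Plk3 was past the limit again at 24 h with 0.44, and Btg2 at 7 d with 0.40. Ddit4, an inhibitor of mTORC1, measured 10.3 and 13.4 FPKM at 2 h, a difference of 0.35. Among the targets in apoptosis Perp was higher at 2 h by 0.37, while Pmaip1 and Siva1 both had −0.33.

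The measured genes listed as p53 targets went in both directions at 2 h. Cocaine was higher for 9 of 13 targets in arrest and repair and for 9 of 15 in apoptosis. It was higher for 5 of 10 in metabolism and secreted proteins, beside 56.1% of the measured genes. The proapoptotic Bax measured 24.6 FPKM in saline and 23.8 FPKM in cocaine, Bbc3, the gene for Puma, 2.50 and 2.55 FPKM, and the nucleotide excision repair gene Ddb2 5.81 and 5.24 FPKM. Cycs, the gene for cytochrome c, was the only measured gene of these lists past the limit with cocaine lower at 7 d, with 72.4 and 54.6 FPKM and a difference of −0.40. Cdkn1a, with 0.30 at 2 h, lay below Btg2, Plk3 and Gadd45b and above Ccng1, with −0.04.

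No measured partner of the D-type cyclins was past the limit. Of 19 kinases, inhibitors and Rb and E2F genes 14 were measured and 0 were past the limit at any time, with medians of −0.01, −0.01 and −0.04. Of all measured genes 4.79%, 2.56% and 2.81% were past it with cocaine higher at the 3 times. With cocaine lower the shares were 3.0%, 2.32% and 5.58%, and a count of 0 of 14 is near such shares. Cdk4, one of the kinases that D-type cyclins activate, had a mean of 33.5 FPKM over the 6 groups, whereas its relative Cdk6 had 0.102 FPKM and Cdk2 0.525 FPKM. Cdk4 itself had differences of −0.03, −0.15 and −0.29. The inhibitor Cdkn2c, at 0.32 at 2 h, lay just under the limit. Of 12 proliferation genes 3 were measured and 9 lay under the minimum of 1 FPKM, among them Mki67 with a mean of 0.0591 FPKM, and the measured ones, Ccna2, Mcm2 and Mcm5, were not past the limit at any time. The part of dividing cells in the difference of Ccnd2 at 2 h was not tested.

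Of the sestrin partners, 2 were past the limit, both at 7 d. All 17 genes of the GATOR complexes, the Rag GTPases, AMPK and mTORC1 were measured, and 0 were past the limit at 2 h or 24 h. At 7 d Mtor, the kinase of mTORC1, measured 8.27 FPKM in saline and 10.8 FPKM in cocaine, a difference of 0.35. At the same time Nprl2, a subunit of the GATOR1 complex that inhibits mTORC1, measured 17.8 and 14.1 FPKM, a difference of −0.32. They were 1 gene of 17 in each direction, beside 2.81% and 5.58% of the measured genes. The shares of the measured genes with cocaine higher and lower were 4.79% and 3.0% at 2 h, and 2.56% and 2.32% at 24 h. The list medians were 0.01, 0.03 and 0.00.

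**Figure D4:**
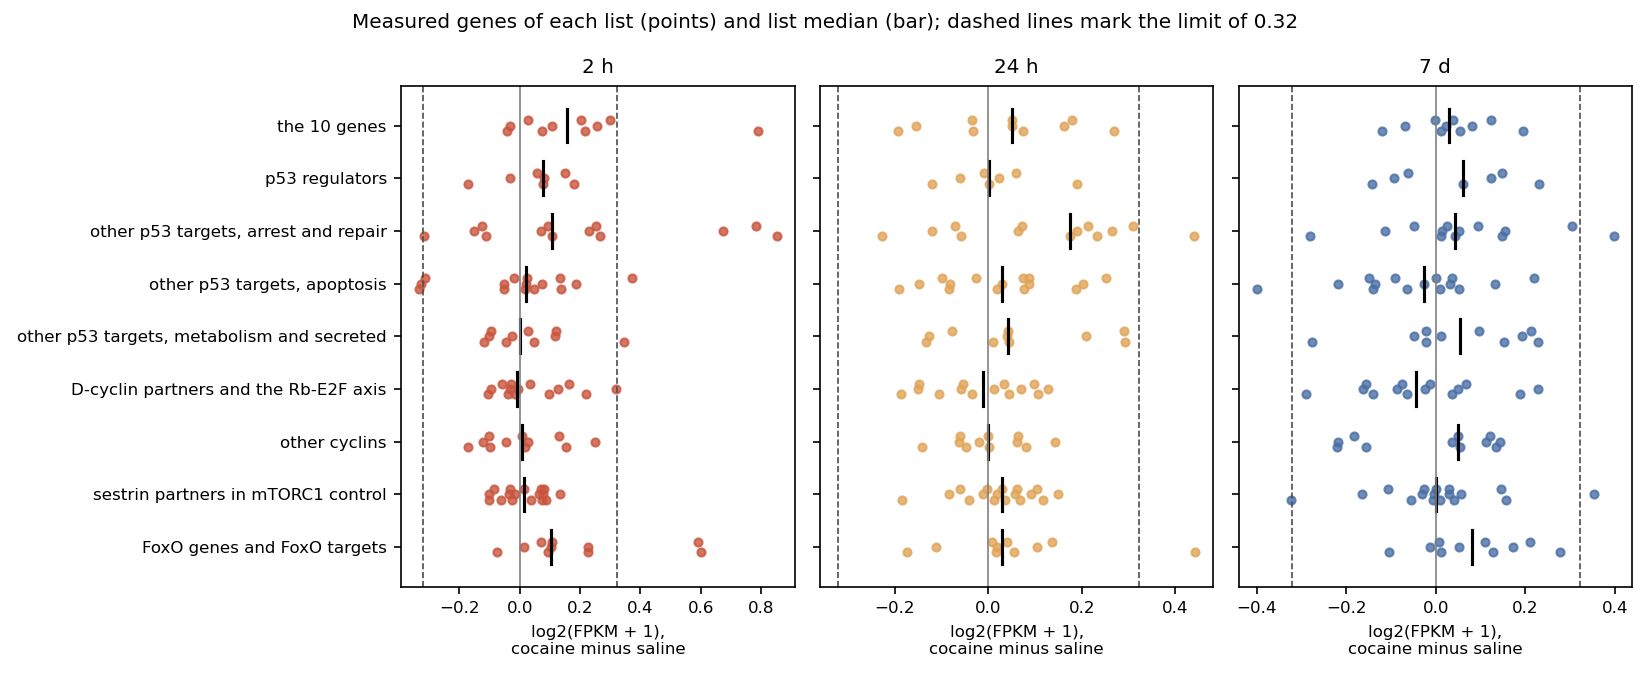
Cocaine minus saline difference on the log2(FPKM + 1) scale (horizontal axes) of each measured gene (points) of the 10 genes and of 8 related lists (rows) at 2 h, 24 h and 7 d, with the list median as a black bar and the limit of 0.32 as dashed lines. The points farthest to the right at 2 h are Btg2 at 0.85, Ccnd2 at 0.79 and Plk3 at 0.78, and the list medians lie between −0.04 and 0.17.

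Neuronal activity genes and cell type markers were read beside these values. All 10 immediate-early genes on the list were past the limit with cocaine higher at 2 h, 8 were at 24 h and 9 at 7 d, with medians of 1.97, 0.69 and 0.55. The differences were led at 2 h by Arc with 3.58, Fos with 2.34 and Junb with 2.34. At the later times Arc had 1.19 and 1.59, Fos 1.05 and 1.13, and Egr1 0.98 and 0.74. The difference of Ccnd2 and those of Cdkn1a and Ccnd1 were largest at the same time as this median, and a link was not tested. Of the 6 neuron markers 0 were past the limit at any time, with medians of 0.02, 0.02 and 0.05, and their summed level was 2509, 2527 and 2539 FPKM in saline and 2432, 2503 and 2425 FPKM in cocaine. These markers were thus abundant in every group.

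The 5 astrocyte markers were all higher in cocaine at 2 h, all lower at 24 h and all higher at 7 d, with medians of 0.15, −0.22 and 0.14. Gfap at 24 h, with −0.34, was the only one of them past the limit. Their summed level was 319, 367 and 313 FPKM in saline and 351, 327 and 351 FPKM in cocaine at the 3 times. Ccnd1 and Sesn3 had the same order of signs, and the part of astrocyte RNA in their differences was not tested. Of the 5 oligodendrocyte markers 4 were lower at 2 h and all 5 at 24 h, with medians of −0.08, −0.18 and 0.03, and 0 were past the limit. The oligodendrocyte precursor marker Gpr17 was past it at 2 h with 0.45 and at 24 h with 0.33, while Pdgfra, which defines these cells, had −0.00 and −0.28. Over the 4 precursor markers the median was 0.05 at 2 h, with 2 of them higher, −0.12 at 24 h, with 1 higher, and 0.20 at 7 d, with all 4 higher, where Ccnd2 differed by 0.01. Their summed level was 18.9, 19.3 and 17.2 FPKM in saline and 21.8, 19.2 and 20.4 FPKM in cocaine, and the part of precursors in the difference of Ccnd2 was not tested. None of the marker genes was listed at 0 in any group.

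Of the 5 red blood cell markers 4 were past the limit at 2 h with cocaine higher, led by Hbb-bt with 0.71, Hba-a2 with 0.65 and Hba-a1 with 0.64, and their summed level was 323 FPKM in saline and 504 FPKM in cocaine. At 24 h 0 were past it, and at 7 d only Hba-a1 was, with 0.33. The 6 endothelial and mural markers had medians of 0.12, −0.06 and 0.21, with 0 past the limit at 2 h and Acta2 past it at 7 d with 0.43, and the 6 microglia markers had medians of 0.07, −0.12 and 0.01, with Tmem119 past it at 2 h with 0.32. The choroid plexus marker Ttr differed by −0.99, −0.42 and 2.56, and the striatal marker Adora2a was past the limit at 7 d with 0.38. Of the 4 measured olfactory bulb and neuroblast markers 0 were past it. The part of blood, vessels or neighbouring tissue in the differences of the 10 genes was not tested.

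The genes whose 3 differences lay nearest to those of Cdkn1a, Ccnd1 and Sesn1 were sought among 8696 genes with a mean of at least 5 FPKM, by Euclidean distance over the 3 times. For Cdkn1a they were Wbscr22 with a distance of 0.0388, the joint row of Isy1 and Rab43 with 0.0514 and Bok with 0.0563, and 27 genes lay within 0.1. For Ccnd1 they were Gramd3 with 0.0299, Ap3m1 with 0.0518 and Cpq with 0.0533, and 33 genes lay within 0.1. For Sesn1 they were Ppil4 with 0.00916, Alg2 with 0.0123 and Ndufa9 with 0.0127, and 1273 genes lay within 0.1. A pattern near 0 at all times, as that of Sesn1, was thus shared by many genes, and the patterns of Cdkn1a and Ccnd1 by few. Most genes differ little, so a count within a fixed distance depends on the size of the differences. It does not show that a pattern is distinctive.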

How the data were processed

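RNA of 12 libraries in 6 groups was sequenced by the study. Per the labels and the methods, reads were trimmed and aligned by the authors with TopHat2 (2.0.12), reads with a unique position were kept, and saline was set against cocaine at each time with Cufflinks (2.2.1) and Cuffdiff. The deposited tables hold 1 FPKM per group and locus, pooled over the libraries, so no library value, replicate error or depth is used here. They also hold the authors' fold changes, test statistics, p-values and q-values, which were not used. The loci were those of GRCm38, although the methods name an older build.

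From the FPKM, log2(FPKM + 1) differences were computed in Python (3.11.15) for 13413 genes with a mean of at least 1 FPKM. The longest locus stood for a name with several loci. The mean difference over the 3 times was tested with limma (3.58.1, R 4.3.3; moderated, with a trend), and the model was tested on simulated data. Its p-values rest on the spread between time points, that of the gene mixed with that of other genes of like level. They hold no spread between libraries or animals. Besides the 10 genes, the text names list genes past the limit of 0.32 (up to 3 per list and time), cell type markers and the 3 nearest genes by pattern for Cdkn1a, Ccnd1 and Sesn1. Mdm4, Atm, Ppm1d, Bax, Bbc3, Ddb2, Cdk4, Cdk6, Cdk2, Cdkn2c, Mki67, Ccna2, Mcm2, Mcm5, Foxo3, Foxo4 and the genes sharing a locus with a cyclin were named after their values were seen. The 10 genes and the lists were chosen with earlier results of these data known. Transcript lengths came by symbol from GENCODE and covered 84.6% of the measured genes.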

Additional observations from a re-analysis of the deposited data

Results flagged for a closer look

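The difference of Cdkn1a between cocaine and saline had opposite signs at 2 h and later, although it was small at the later times. At 24 h it was −0.03 and at 7 d −0.12, and 75.0% and 45.6% of the measured genes differed at least as much. The value at 2 h exceeded that at 24 h by 0.33 and that at 7 d by 0.42 on the log2(FPKM + 1) scale. Ccnd1 also had opposite signs at 2 h and 24 h, and its value at 2 h exceeded that at 24 h by 0.45. Each group has 1 pooled value, so these differences between time points were not tested.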

How the results depend on the processing

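Of 150 values of the 10 genes under 5 alternatives (a pseudocount of 0.1 or none, centring on the median, a length trend taken out, and loci of a name summed), 148 stayed on the same side of the limit. The others were those of Cdkn1a at 2 h, with 0.32 for a pseudocount of 0.1 and 0.33 for none. The number of the 10 genes past the limit at 2 h was then 2, beside 1653 of 13413 genes with a pseudocount of 0.1 and 1640 of 13157 with none. It was 2 as well at a lower threshold of 1.2-fold, where 1 was past it at 24 h. The share of all genes at 1.2-fold was not counted, so these 2 numbers have nothing to be set beside. The number of all genes past the limit, 1044, 655 and 1126 at 2 h, 24 h and 7 d, was 1653, 1031 and 1730 with a pseudocount of 0.1, 1640 and 1734 at 2 h and 7 d with none, and 596, 271 and 373 with the length trend taken out over 11343 genes with a length. Over the same genes as deposited, an alternative chosen after seeing the data, it was 630, 278 and 634. It was 506, 304 and 692 at a minimum of 5 FPKM and 343, 289 and 334 at a higher threshold of 1.5-fold, where fewer genes can pass, and 984 at 24 h without a minimum. The number called by limma was 1 with a pseudocount of 0.1, and 7, 3 and 1 without the 2 h, 24 h and 7 d tables, and 0 in the other settings. The means of Cdkn1a and Ccnd1 reversed to −0.077 and −0.085 without 2 h, the time at which both were higher in cocaine. Apart from these, the cause was not tested. The mean of Ccnd3 stayed between 0.19 and 0.21 and its adjusted limma p between 0.491 and 0.943.

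No paired analysis was possible because the columns are pooled over the libraries and carry no replicate numbers, and for the same reason leaving out single libraries was not possible.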

Other observations

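FoxO factors and their targets, which are known to include Sesn3, were read as a further list. Of 10 measured genes 2 were past the limit with cocaine higher at 2 h, beside 4.79% of all measured genes. Bcl6, a transcriptional repressor, measured 3.59 FPKM in saline and 5.96 FPKM in cocaine. Foxo6, a FoxO factor of the forebrain, measured 2.89 and 4.87 FPKM. At 24 h 1 of the 10 was past the limit with cocaine higher, beside 2.56% of all measured genes. This was Foxo6, with 2.30 and 3.49 FPKM, and at 7 d Foxo6 measured 1.87 and 1.84 FPKM. Foxo3 and Foxo4 measured 14.0 and 15.1 FPKM and 4.11 and 4.98 FPKM at 2 h. Of all measured genes 2.81% were past the limit with cocaine higher at 7 d, and 3.0%, 2.32% and 5.58% with cocaine lower at the 3 times. Of the 11 cyclins outside the D type 0 were past the limit at any time, and their differences lay between −0.17 and 0.25 at 2 h. The lowest and the highest were −0.14 and 0.14 at 24 h, and −0.22 and 0.14 at 7 d.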
